A study of Mus musculus with 12 samples.

Results

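The comparison described here sets resting bone marrow-derived macrophages (BMDMs) treated with 3'-sialyllactose (3'SL) against the same cells given PBS, with no LPS in either group. Its libraries were taken by treatment label alone, although the comparison was chosen with earlier results of these data known. It holds 6 of the 12 RNA-Seq libraries of the series, 3 with PBS and 3 with 3'SL. BMDMs are primary macrophages grown from mouse marrow, and 3'SL, which the labels call HMO, is a human milk oligosaccharide made of lactose with a sialic acid attached. Cells received 100 μg/mL 3'SL for 6 hours, and the other 6 libraries received 10 ng/mL LPS with or without 3'SL. The question was which transcripts 3'SL alone alters before any inflammatory stimulus. The treatment text in the labels describes injections of living mice, which is not how the paper describes the cell cultures, so dose and time rest on the paper alone. Strain, genotype, sex and age are not stated in the labels. The paper calls its RNA-Seq samples biologically independent, but no source used here ties a library to a mouse or a culture, and p-values measure the spread between these libraries.

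Libraries held 22666272 to 26851890 reads on genes with PBS and 20411741 to 23352909 with 3'SL. The library names carry the numbers 1 to 12, and each consecutive run of 4 holds 1 library of every group. The labels do not say what a run is (a mouse, a day or a preparation). PBS and 3'SL libraries of the same run deviated together from their group means across the 9569 genes at 5 CPM (counts scaled to library size) or more (r = 0.836, 0.803 and 0.814 in runs 1, 2 and 3), while libraries of different runs gave r between -0.61 and -0.0385. Deviations from a mean of 3 libraries sum to 0, so positive r within runs brings negative r between runs by arithmetic. Macrophage markers summed to 21990 to 26440 CPM with PBS and 24530 to 30560 CPM with 3'SL, and all 13 were detected. Stromal markers differed by run more than by treatment (20 genes, 1262, 58.1 and 182 CPM with PBS and 1374, 65.1 and 166 CPM with 3'SL). Neutrophil and granulocyte precursor markers (14 genes) stood at 201, 350 and 651 CPM with PBS and at 220, 378 and 392 CPM with 3'SL, so they were lower with 3'SL in run 3 alone.

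Treated as 3 against 3 with no term for the run, edgeR's quasi-likelihood test called no gene (0% of the 14308 tested, lowest adjusted p = 0.167). Genes were called here when the adjusted p was below 0.05 and the difference reached 1.5-fold. In that same fit 1439 genes had an unadjusted p under 0.05, and 620 of them passed the fold, while the Wald test of DESeq2 called 88 genes. With the run as a block, so that each 3'SL library was compared with the PBS library of its own run, edgeR called 406 genes (2.84%), of which 283 were higher with 3'SL (1.98%) and 123 lower (0.86%). All 406 had the same sign in each of the 3 runs, which the block fit favours by construction. Of the called genes, 177 higher and 69 lower ones had PBS and 3'SL libraries that did not overlap at all, a state that 9.02% of all tested genes showed upward and 8.53% downward. Unless a fit is named, changes below come from the fit with the run block, and levels are CPM listed in the order of runs 1, 2 and 3. The background for calls in any list is 1.98% higher and 0.86% lower. In the block fit 3440 of the 14308 tested genes had an unadjusted p under 0.05. That is the background for such counts in the lists below. The split between higher and lower depended on scaling, since 69.7% of calls were higher after TMM normalization and 49.6% when libraries were scaled by total counts (181 higher and 184 lower).

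The size of the response differed between runs. Changes had a standard deviation of 0.27 log2 units in runs 1 and 2 and 0.51 in run 3, and 410, 353 and 1668 of the 9569 genes passed 1.5-fold within runs 1, 2 and 3. Genes called higher rose by a median of 0.70, 0.66 and 1.19 log2 units in the 3 runs, and genes called lower had medians of -0.62, -0.61 and -1.03. The PBS library of run 3 also stood apart. For 217 of the 283 genes called higher it was the highest of the PBS libraries (39.3% of all tested genes had this order), and for 91 of the 123 called lower it was the lowest (40.6% of all tested genes). The part that run 3's own background plays in its larger changes was not tested.

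Runs 1 and 2 on their own gave 323 called genes, 196 higher (1.36% of 14396 tested) and 127 lower (0.882%), and 220 of the 323 were among the 406. Run 3 took no part in choosing these genes. There, 192 of the 196 were higher with 3'SL (median 1.21), 169 of them by 1.5-fold or more, against 11% of all tested genes. Of the 127 lower genes, 117 were lower in run 3 as well (median -0.90), 92 of them past 1.5-fold, against 10.7% of all genes. When run 1 or run 2 was left out instead, 2 and 3 genes were called.

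**Figure D1:**
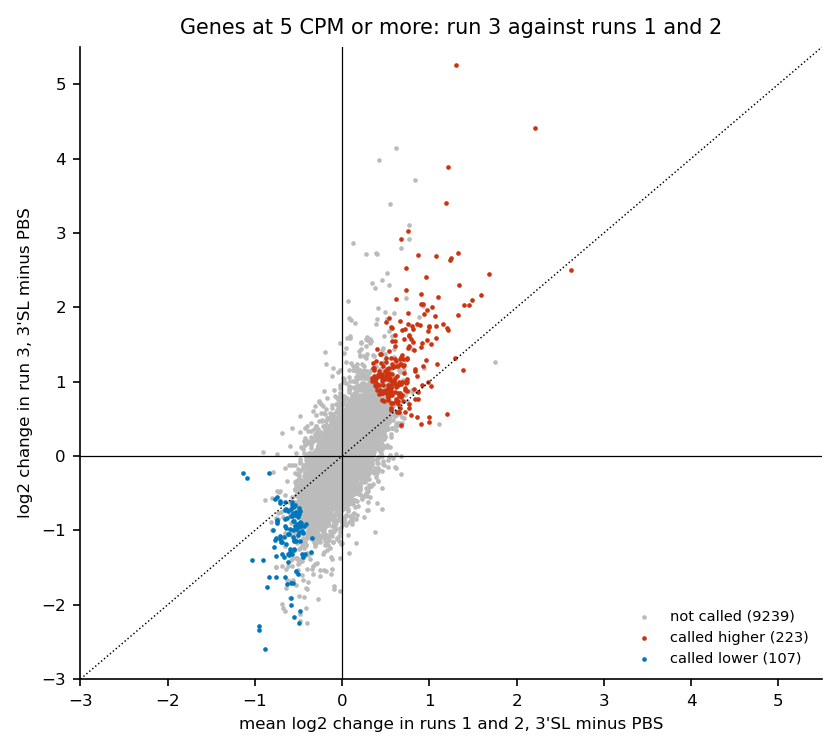
Each point is a gene at 5 CPM or more; the x axis is the mean log2 change (3'SL minus PBS) in runs 1 and 2 and the y axis the log2 change in run 3, with the dotted line marking equal change. The 223 plotted genes called higher (red) and 107 called lower (blue) lie in the upper right and lower left quadrants, mostly steeper than the dotted line.

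The groups of genes that moved are described next. NRF2, encoded by Nfe2l2, is a transcription factor held in check by KEAP1, and oxidants or electrophiles release it to switch on genes for glutathione and thioredoxin metabolism. In macrophages it also governs heme breakdown and iron export. The unfolded protein response senses unfolded proteins in the endoplasmic reticulum (ER) through IRE1, PERK and ATF6 and raises chaperones and degradation factors, while ATF4, downstream of PERK and of amino acid shortage, raises amino acid import and synthesis genes.

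Oxidative stress genes made up the list with the highest median change among the 64 lists examined. Of the 27 tested genes on a list of NRF2 targets and antioxidant enzymes, 14 were called higher and 1 lower (background 1.98% and 0.86%), and 25 had positive changes. The list's median was 1.10 log2 units, against 0.00 for all genes, and within runs it was 0.49, 0.56 and 1.78. Runs 1 and 2 alone called 11 higher and 1 lower. The 14 were Slc7a11, Mt2, Gclm, Srxn1, Gclc, Gsta3, Osgin1, Hmox1, Txnrd1, Gsr, Cat, Prdx1, Pgd and Taldo1. Txnrd1, Prdx1, Taldo1 and Gsta3 lost their calls under scaling by total counts, and Prdx1, Pgd, Taldo1 and Gsta3 without run 3.

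Glutathione supply was represented at several steps. Slc7a11, the cystine importer subunit of system xc-, lies at chr3:49892526-50443614 on the minus strand (GRCm38, GENCODE M21) and stood at 6.75, 5.86 and 22.2 CPM with PBS and 31.4, 30.5 and 482 CPM with 3'SL (log2 change 3.28 ± 0.53 (SE), edgeR adjusted p = 0.00949). Every 3'SL library was above every PBS library, and the 3'SL library of run 3 was far above the other two. Gclm, the modifier subunit of glutamate-cysteine ligase, which makes the first step of glutathione synthesis (chr3:122245557-122270732, plus strand), stood at 94.1, 94.4 and 238 CPM with PBS and 318, 292 and 1299 CPM with 3'SL (log2 change 2.00 ± 0.25 (SE), edgeR adjusted p = 0.00329). Its catalytic partner Gclc stood at 56.7, 59.99 and 117 CPM with PBS and 130.3, 145 and 729 CPM with 3'SL (log2 change 1.85 ± 0.38 (SE), edgeR adjusted p = 0.0209). Both subunits were higher in each 3'SL library than in any PBS library. Gsr, which returns oxidized glutathione to its reduced form, stood at 53.9, 54.4 and 83.6 CPM with PBS and 102, 95.2 and 288 CPM with 3'SL (log2 change 1.19 ± 0.16 (SE), edgeR adjusted p = 0.00436). The pentose phosphate enzymes Pgd and Taldo1, which provide or follow NADPH, showed smaller changes of 0.82 and 0.61 (edgeR adjusted p = 0.022 and 0.0417) and were not called without run 3. Slc7a11, Mt2 and Gclm had the 3 largest changes among the called members, and Gclc, Gsr, Pgd, Taldo1, Srxn1, Txnrd1, Cat, Nqo1, Nfe2l2 and Keap1 were named after their values were seen.

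Srxn1, the sulfiredoxin that repairs overoxidized peroxiredoxins, stood at 171, 152 and 358 CPM with PBS and 436, 377 and 2382 CPM with 3'SL (log2 change 1.93 ± 0.36 (SE), edgeR adjusted p = 0.0145). Txnrd1, thioredoxin reductase, stood at 275, 278 and 568 CPM with PBS and 535, 495 and 1932 CPM with 3'SL (log2 change 1.26 ± 0.29 (SE), edgeR adjusted p = 0.0314), and there the PBS library of run 3 lay above the 3'SL libraries of runs 1 and 2. Hmox1, which encodes heme oxygenase 1 (chr8:75093621-75100589, plus strand), stood at 1249, 943 and 2697 CPM with PBS and 3155, 2579.8 and 11059 CPM with 3'SL (log2 change 1.64 ± 0.22 (SE), edgeR adjusted p = 0.00436). Its groups overlapped by 1 library, because PBS in run 3 exceeded 3'SL in run 2. Cat, catalase, stood at 262, 302 and 297 CPM with PBS and 414, 478 and 1043 CPM with 3'SL (log2 change 1.10 ± 0.23 (SE), edgeR adjusted p = 0.023). Mt2, a metallothionein that binds zinc and other metals, stood at 12.6, 11 and 9.01 CPM with PBS and 36.5, 24.3 and 364 CPM with 3'SL (log2 change 2.91 ± 0.68 (SE), edgeR adjusted p = 0.0326), and an antisense model covers 73.5% of its exons. Sqstm1, an autophagy receptor that also binds KEAP1, stood at 545, 516 and 852 CPM with PBS and 912, 833 and 2792 CPM with 3'SL (log2 change 1.12 ± 0.27 (SE), edgeR adjusted p = 0.0385), although DESeq2 with the block did not call it and antisense models cover 17.3% of its exons.

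**Figure D2:**
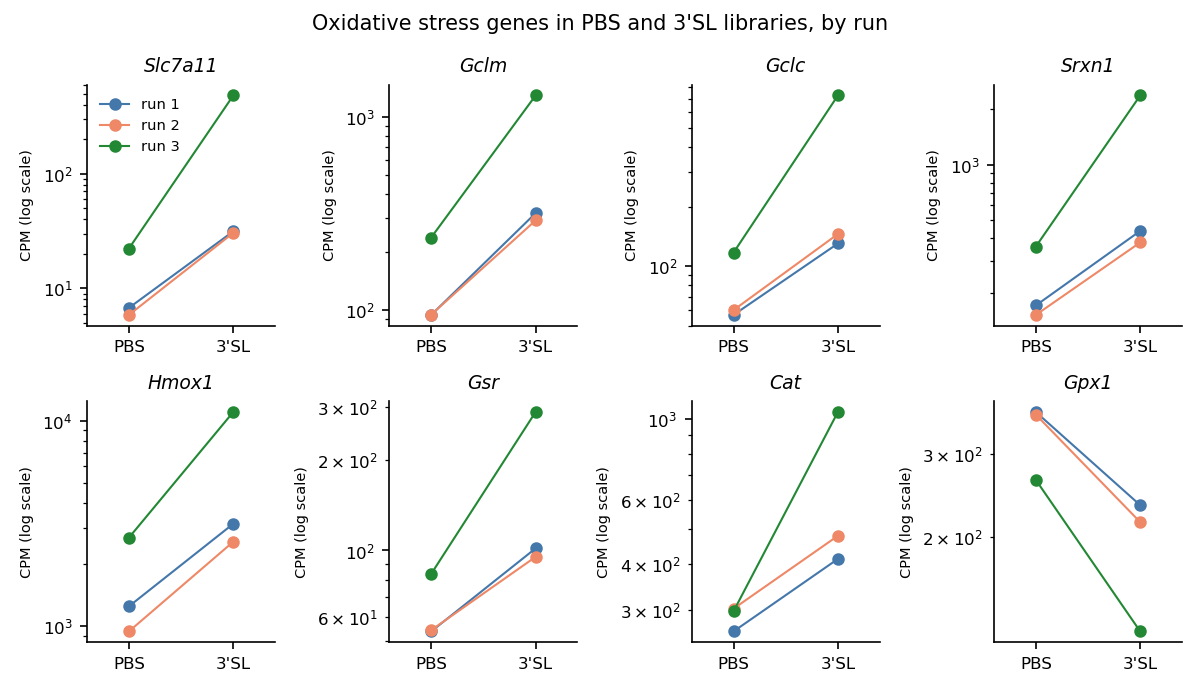
CPM on a log axis for 8 oxidative stress genes, with each line joining the PBS and 3'SL library of 1 run. All lines rise except those of Gpx1, which fall, and the run 3 lines end highest for the rising genes (482 CPM for Slc7a11, 1299 CPM for Gclm).

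Gpx1, the selenium-dependent glutathione peroxidase, was the member that fell. It stood at 369.9, 365 and 265 CPM with PBS and 233, 215 and 125 CPM with 3'SL (log2 change -0.84 ± 0.11 (SE), edgeR adjusted p = 0.00394), and no 3'SL library reached a PBS library. Nqo1, a quinone reductase often used as an NRF2 reporter, did not pass the test at 2.47, 2.07 and 2.66 CPM with PBS and 4.87, 4.02 and 40.8 CPM with 3'SL (log2 change 2.35 ± 0.64 (SE), edgeR adjusted p = 0.0567), although its groups did not overlap. The regulators themselves were not called, with log2 change 0.36 ± 0.12 (SE), edgeR adjusted p = 0.105 for Nfe2l2 and log2 change 0.27 ± 0.09 (SE), edgeR adjusted p = 0.0912 for Keap1.

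Promoters of the called members were searched on both strands for TGANTCAGC, a core of the antioxidant element bound by NRF2 with small MAF proteins. The windows ran from 250 bases before to 50 after the annotated start (RefSeq, GRCm38.p6), and 24 of the 27 genes had one. A match was present for Srxn1, Osgin1, Prdx1 and Mt2 among the 12 called members with a window (33.3%), in 1.19% of all 32851 promoter windows and in 1.4% of those of tested genes. Over the whole list it was 5 of 24 (20.8%), with Me1, which was not called. The list holds known NRF2 targets, so these shares do not test a role of NRF2. Among all genes called higher, 10 of 210 with a window held it (4.76%), and among genes called lower 0 of 93. The Srxn1 promoter (chr2:152105274-152105573, plus strand) is shown as an example whose match lies close to the start site, with the match in capitals.
Srxn1: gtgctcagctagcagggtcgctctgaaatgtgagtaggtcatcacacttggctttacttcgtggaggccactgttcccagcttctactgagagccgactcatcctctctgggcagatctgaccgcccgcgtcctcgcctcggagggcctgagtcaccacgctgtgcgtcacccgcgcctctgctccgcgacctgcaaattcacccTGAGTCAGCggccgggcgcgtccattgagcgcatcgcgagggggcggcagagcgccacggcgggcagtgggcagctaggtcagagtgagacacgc

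Iron handling genes overlapped with this group through Hmox1. Of 21 tested, 5 were called higher and 1 lower (background 1.98% and 0.86%), with a median of 0.24 (0.26, 0.17 and 0.37 by run). Slc40a1, ferroportin, the only known iron exporter, stood at 465, 559 and 679 CPM with PBS and 869, 1143 and 1657 CPM with 3'SL (log2 change 1.08 ± 0.11 (SE), edgeR adjusted p = 0.00137), with no overlap between groups. Spic, a transcription factor of heme-processing macrophages, stood at 5.86, 9.61 and 12.6 CPM with PBS and 12, 15.8 and 29 CPM with 3'SL (log2 change 0.98 ± 0.10 (SE), edgeR adjusted p = 0.00166), and rose within each run although the groups overlapped. Steap3, an endosomal ferrireductase, fell and stood at 56.2, 60.7 and 45 CPM with PBS and 36.5, 37.2 and 24.9 CPM with 3'SL (log2 change -0.73 ± 0.11 (SE), edgeR adjusted p = 0.00897). Slc48a1, a heme transporter, and Blvrb, a biliverdin reductase, were the other members called higher.

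ER chaperones were higher with 3'SL in each run. Of 27 chaperone and oxidative folding genes, 10 were called higher and 0 lower (background 1.98% and 0.86%). In this list 24 changes were positive, and 21 genes had 3'SL libraries that all lay above the PBS libraries (9.02% of all genes). The median was 0.42, with 0.41, 0.35 and 0.58 in the 3 runs, and runs 1 and 2 alone called 7. Hspa5, the ER HSP70 chaperone BiP and a central regulator of this response (chr2:34771970-34777547, plus strand, named after its values were seen), stood at 1124, 1278 and 1602 CPM with PBS and 1989.8, 2029.5 and 3207 CPM with 3'SL (log2 change 0.83 ± 0.08 (SE), edgeR adjusted p = 0.00137). Creld2, a secreted ER stress marker, stood at 34.1, 37.2 and 59.3 CPM with PBS and 66, 61 and 111 CPM with 3'SL (log2 change 0.86 ± 0.11 (SE), edgeR adjusted p = 0.00392). Dnajb9, a cochaperone of BiP, stood at 43.1, 49.8 and 40.0 CPM with PBS and 65.7, 77.7 and 98.2 CPM with 3'SL (log2 change 0.83 ± 0.15 (SE), edgeR adjusted p = 0.0133). Pdia5, a disulfide isomerase, was scarce at 4.59, 2.49 and 4.01 CPM with PBS and 7.78, 5.61 and 7.16 CPM with 3'SL (log2 change 0.91 ± 0.18 (SE), edgeR adjusted p = 0.0174). None of these 4 genes had overlapping groups. Pdia4, Hyou1, Manf, Dnajc3, Hsp90b1 and Sdf2l1 were the other calls, with changes from 0.60 to 0.82 (chosen after their values were seen). Dnajc3, Hsp90b1 and Sdf2l1 lost their calls without run 3 and under scaling by total counts, and Manf under the latter.

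Neighbouring steps of the secretory pathway had lower list medians than the chaperones. All 19 ER-associated degradation genes had positive changes (median 0.32), and 3 were called higher (background 1.98%). Herpud1, a scaffold of the ubiquitin ligase complex, stood at 26.6, 25.8 and 25.5 CPM with PBS and 48.2, 40.5 and 64.5 CPM with 3'SL (log2 change 0.94 ± 0.16 (SE), edgeR adjusted p = 0.0114), and Syvn1, the ligase HRD1 itself, at 59, 60.3 and 88 CPM with PBS and 88.9, 91.5 and 175 CPM with 3'SL (log2 change 0.73 ± 0.10 (SE), edgeR adjusted p = 0.00436). Derl3, a derlin, was near the detection limit at 0.345, 0.561 and 1.21 CPM with PBS and 1.34, 1.87 and 2.54 CPM with 3'SL (log2 change 1.53 ± 0.38 (SE), edgeR adjusted p = 0.0417). Of 32 genes for ER entry and N-glycosylation, 31 had positive changes with a median of 0.22, but edgeR called 0 at the 1.5-fold limit and DESeq2 with the block also 0, while 18 had an unadjusted p under 0.05. Stt3a and Gfpt1 had the lowest p, with changes of 0.36, edgeR adjusted p = 0.0187 and 0.42, edgeR adjusted p = 0.02. Sec24d, a COPII coat subunit that selects cargo for export, stood at 63.9, 68.9 and 80.5 CPM with PBS and 112, 107 and 188 CPM with 3'SL (log2 change 0.90 ± 0.12 (SE), edgeR adjusted p = 0.00436), and Golgb1 and Uso1, tethers of the Golgi, changed by 0.66 and 0.60. The transport list as a whole had 3 of 42 called higher (background 1.98%) and a median of 0.20. Derl3, Golgb1 and Uso1 lost their calls without run 3 and with total counts, and Syvn1 without run 3. Of the 16 regulators of the unfolded protein response, 1 was called, Creb3l2, an ER-membrane transcription factor that stood at 27.5, 22.6 and 28.7 CPM with PBS and 46, 38.7 and 59.3 CPM with 3'SL (log2 change 0.85 ± 0.10 (SE), edgeR adjusted p = 0.00236).

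The ER stress element, CCAAT and CCACG separated by 9 bases, was searched for in the same way. It was found in 4 of the 8 called chaperone genes with a window (Creld2, Dnajc3, Hsp90b1 and Hspa5) and in 0.119% of all windows (0.159% of those of tested genes). Of 16 tested genes that carry it, 6 were called higher and 0 lower (background 1.98% and 0.86%). Chaperone genes that were not called, Calr, Canx and Pdia6, carry it too, so the whole list held it in 7 of 21 windows (33.3%). The list holds known targets of the unfolded protein response, so these shares do not test a role of that response. The Hspa5 promoter (chr2:34771840-34772139, plus strand) is printed to show the whole element, in capitals.
Hspa5: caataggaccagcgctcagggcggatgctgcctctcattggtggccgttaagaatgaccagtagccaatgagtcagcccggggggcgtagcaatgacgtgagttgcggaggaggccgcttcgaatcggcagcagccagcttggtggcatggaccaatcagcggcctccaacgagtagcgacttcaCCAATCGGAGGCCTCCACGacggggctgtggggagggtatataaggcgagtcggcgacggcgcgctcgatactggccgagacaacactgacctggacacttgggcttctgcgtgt

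Genes linked to ATF4 and amino acid supply rose in part. Of 23 tested, 6 were called higher and 0 lower (background 1.98% and 0.86%), with a median of 0.55 (0.47, 0.29 and 0.61 by run). Besides Slc7a11, Chac1, which degrades glutathione, stood at 1.35, 0.456 and 0.371 CPM with PBS and 3.24, 1.03 and 2.39 CPM with 3'SL (log2 change 1.70 ± 0.36 (SE), edgeR adjusted p = 0.0238) and lost its call without run 3. Slc1a4, a neutral amino acid transporter, stood at 4.45, 1.26 and 2.46 CPM with PBS and 8.56, 3.7 and 7.87 CPM with 3'SL (log2 change 1.35 ± 0.24 (SE), edgeR adjusted p = 0.0126). Both stood at a few CPM and were higher with 3'SL in every run, but the groups overlapped, since PBS in run 1 exceeded 3'SL in run 2. Trib3, Slc38a2 and Mthfd2 were the remaining calls. Of the 20 aminoacyl-tRNA synthetases, edgeR and DESeq2 with the block called 0, 7 had an unadjusted p under 0.05, and the median change was 0.06. The letters TGATGNAA, part of the site bound by ATF4 with CEBP proteins, occur in 4 of the 6 called members (Chac1, Slc1a4, Slc7a11 and Trib3). The list holds known ATF4 targets, so this share does not test a role of ATF4. Over the whole list, called or not, the letters occur in 8 of 22 windows (36.4%). They occur in 3.97% of all windows and in 2.95% of those of tested genes. The Slc7a11 promoter (chr3:50443564-50443863, minus strand, printed in the direction of transcription) holds a pair of them facing each other, and is shown for the gene with the largest change of the group.
Slc7a11: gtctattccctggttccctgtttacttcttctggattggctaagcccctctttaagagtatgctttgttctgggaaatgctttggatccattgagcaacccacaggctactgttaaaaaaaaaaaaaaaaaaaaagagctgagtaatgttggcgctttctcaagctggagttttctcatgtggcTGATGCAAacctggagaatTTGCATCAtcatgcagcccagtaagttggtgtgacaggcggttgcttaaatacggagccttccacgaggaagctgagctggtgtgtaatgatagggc

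DNA replication genes were lower. None of the 33 tested had a positive change, 10 were called lower (background 0.86%), and the median was -0.79 with -0.53, -0.41 and -1.29 in the 3 runs. Runs 1 and 2 alone called 8. Mcm2, a subunit of the replicative helicase (chr6:88883474-88898780, minus strand), stood at 137, 160.2 and 88.8 CPM with PBS and 93.5, 104 and 21.9 CPM with 3'SL (log2 change -1.04 ± 0.23 (SE), edgeR adjusted p = 0.0298). Mcm3, another helicase subunit, stood at 192, 219.7 and 123 CPM with PBS and 129, 151 and 27.2 CPM with 3'SL (log2 change -1.01 ± 0.27 (SE), edgeR adjusted p = 0.0487). Pole, the catalytic subunit of the leading-strand polymerase, stood at 40.3, 50.5 and 17.4 CPM with PBS and 26.7, 31.2 and 4.93 CPM with 3'SL (log2 change -0.98 ± 0.23 (SE), edgeR adjusted p = 0.0336). In all 3 genes the PBS library of run 3 already lay below the 3'SL libraries of runs 1 and 2, so the groups overlapped, and only the comparison within runs separates them. The other calls were Mcm5, Mcm7, Rfc4, Pold1, Gins2, Cdc45 and Lig1, and Mcm3, Mcm5 and Mcm7 lost theirs without run 3. Ung, a uracil glycosylase active at replication forks, stood at 19.3, 21.4 and 11.3 CPM with PBS and 8.93, 11.7 and 1.91 CPM with 3'SL (log2 change -1.43 ± 0.29 (SE), edgeR adjusted p = 0.0204), and Cdca7, a chromatin gene of the G1 to S transition, at 33.7, 34.1 and 25.6 CPM with PBS and 16.6, 19.8 and 3.82 CPM with 3'SL (log2 change -1.48 ± 0.31 (SE), edgeR adjusted p = 0.0228).

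Mitosis genes had a median change near 0. Of 26 tested, 11 had positive changes, the median was -0.01 (0.11, 0.01 and -0.19 by run), edgeR and DESeq2 with the block called 0, and 2 had an unadjusted p under 0.05. Aurkb, a mitotic kinase, stood at 23.5, 22.3 and 4.96 CPM with PBS and 16.1, 20.5 and 3.14 CPM with 3'SL (log2 change -0.41 ± 0.14 (SE), edgeR adjusted p = 0.103), and Hmmr, a spindle protein, at 37.3, 37.4 and 6.68 CPM with PBS and 46.8, 45.1 and 9.3 CPM with 3'SL (log2 change 0.35 ± 0.12 (SE), edgeR adjusted p = 0.103). For both, run 3 was several times below runs 1 and 2 in either group, and the difference between runs was larger than that between treatments. In bulk samples, fewer dividing cells and less transcript per cell cannot be told apart. The letters TTTNNCGC, within the site bound by E2F proteins, occur in 5 of the 8 called replication genes with a window. Over the whole replication list, called or not, they occur in 13 of 27 windows (48.1%). They occur in 5.17% of all windows and in 9.66% of the windows of tested genes, with 8.1% among genes called higher and 15.1% among genes called lower. The last share includes the 5 called replication genes. The list holds known E2F targets, so these shares do not test a role of E2F. The Mcm5 promoter (chr8:75109259-75109558, plus strand) is shown because its matches on opposite strands overlap.
Mcm5: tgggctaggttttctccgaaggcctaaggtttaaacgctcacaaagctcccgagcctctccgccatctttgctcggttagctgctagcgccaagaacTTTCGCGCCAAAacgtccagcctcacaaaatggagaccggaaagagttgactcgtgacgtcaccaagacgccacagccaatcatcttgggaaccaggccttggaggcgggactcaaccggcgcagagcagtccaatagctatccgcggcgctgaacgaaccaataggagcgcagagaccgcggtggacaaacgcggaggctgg

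**Figure D3:**
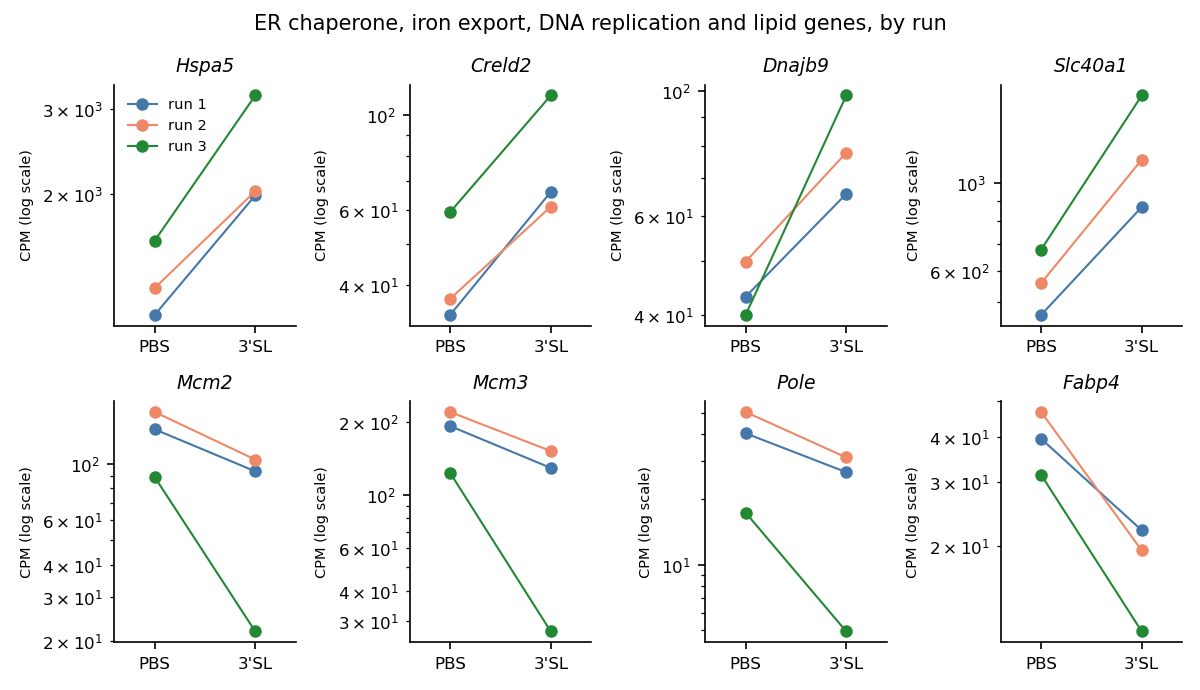
CPM on a log axis for 8 genes, each line joining PBS and 3'SL within 1 run. The ER chaperone genes and Slc40a1 rise in each run, and Mcm2, Mcm3, Pole and Fabp4 fall in each, with run 3 lowest (21.9 CPM for Mcm2 with 3'SL).

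A few lipid genes were called. Of the 21 cholesterol biosynthesis enzymes, 19 had positive changes with a median of 0.30 (0.30, 0.28 and 0.41 by run). EdgeR called 0 of them at 1.5-fold, 12 had an unadjusted p under 0.05, and DESeq2 with the block called 1. Cyp51, lanosterol demethylase, changed by 0.46, edgeR adjusted p = 0.0265, and Fdps, farnesyl diphosphate synthase, by 0.45, edgeR adjusted p = 0.0323, while 26.7% of the Fdps exons lie in another gene model on the same strand. Lrp8, an apolipoprotein E and reelin receptor, stood at 20.8, 19 and 27.4 CPM with PBS and 52.3, 44.1 and 177 CPM with 3'SL (log2 change 1.82 ± 0.31 (SE), edgeR adjusted p = 0.0109), with no overlap. Abca1, which exports cholesterol and is a target of LXR receptors, stood at 268, 322 and 299 CPM with PBS and 433, 473 and 494 CPM with 3'SL (log2 change 0.65 ± 0.08 (SE), edgeR adjusted p = 0.00299), the single call among 15 LXR and efflux genes, which was lost with total counts. Acsl3, which activates fatty acids, changed by 0.67, edgeR adjusted p = 0.0148, and the desaturase gene Fads2 was called higher too (edgeR adjusted p = 0.0328). Fabp4, a fatty acid chaperone of macrophages and adipocytes (chr3:10204088-10208576, minus strand), fell and stood at 39.5, 46.8 and 31.4 CPM with PBS and 22.1, 19.5 and 11.6 CPM with 3'SL (log2 change -1.16 ± 0.16 (SE), edgeR adjusted p = 0.00487), and 3 of the 14 fatty acid binding and lipid droplet genes had positive changes.

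**Figure D4:**
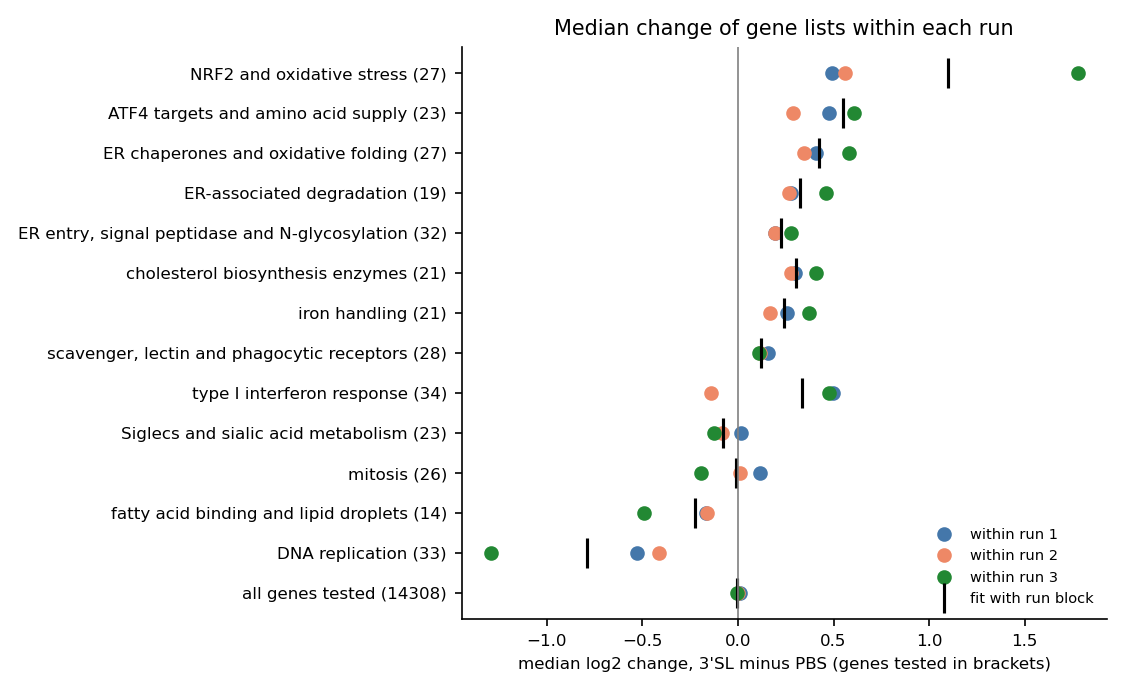
Median log2 change (3'SL minus PBS) of selected gene lists and of all genes tested. Coloured points are runs 1, 2 and 3, and the black tick is the fit with the run block. The number of genes tested is in brackets. Of the lists drawn, oxidative stress (1.10) and DNA replication (-0.79) lie farthest from 0. The ER lists drawn lie to the right in every run, and all genes lie at 0.

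The myeloid surface receptors Trem1 and Tarm1 were among the 15 largest increases. Trem1, an amplifier of innate signalling that pairs with DAP12 (chr17:48232768-48246924, plus strand), stood at 1.92, 1.4 and 14.6 CPM with PBS and 14.3, 11.4 and 85 CPM with 3'SL (log2 change 2.69 ± 0.32 (SE), edgeR adjusted p = 0.00287). Tarm1, an activating receptor of the leukocyte receptor complex, stood at 0.488, 0.386 and 1.99 CPM with PBS and 1.23, 0.955 and 24.1 CPM with 3'SL (log2 change 2.76 ± 0.57 (SE), edgeR adjusted p = 0.022). Clec4n, which encodes the fungal receptor Dectin-2, stood at 26.6, 25.2 and 69.5 CPM with PBS and 57.6, 54.1 and 309 CPM with 3'SL (log2 change 1.53 ± 0.25 (SE), edgeR adjusted p = 0.00954), and Clec4e, which encodes Mincle, at 7.84, 9.37 and 17.5 CPM with PBS and 22.8, 14 and 50.6 CPM with 3'SL (log2 change 1.29 ± 0.34 (SE), edgeR adjusted p = 0.049). The Clec4e call was lost under limma-voom and under both other scalings, with changes of 1.19 to 1.30. Cd14, the LPS coreceptor, stood at 213, 175 and 406 CPM with PBS and 384, 312 and 692 CPM with 3'SL (log2 change 0.81 ± 0.13 (SE), edgeR adjusted p = 0.00945). In each of these genes PBS in run 3 exceeded 3'SL in run 1 or 2, so the rise stands within runs only. Of 28 scavenger, lectin and phagocytic receptors, 4 were called higher and 0 lower (background 1.98% and 0.86%). The median of that list was only 0.12 (0.16, 0.12 and 0.11 by run). Neutrophils also express Trem1 and Clec4e, and the summed neutrophil markers given above were 220 against 201, 378 against 350 and 392 against 651 CPM in the 3 runs. Of the 23 Siglecs and sialic acid genes, edgeR and DESeq2 with the block called 0, and 8 had an unadjusted p under 0.05, among them Cd22 (-0.39, edgeR adjusted p = 0.0619) and Cmas (0.25, edgeR adjusted p = 0.0919).

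Few inflammatory genes passed the test without LPS. The 20 cytokines and mediators had a median change of 0.54 (0.43, 0.21 and 0.43 by run) and 17 positive changes, but 1 was called, Ptges, which makes prostaglandin E2, at 2.12, 2.03 and 4.15 CPM with PBS and 5.1, 2.67 and 9.78 CPM with 3'SL (log2 change 1.04 ± 0.20 (SE), edgeR adjusted p = 0.0145). Of these 20, 11 had an unadjusted p under 0.05, DESeq2 with the block called 4, and runs 1 and 2 alone called 3 higher. Of 22 chemokines edgeR called 0, 6 had an unadjusted p under 0.05, DESeq2 with the block called 2, and runs 1 and 2 alone called 2 higher. Cxcl3 had the lowest p of them at 0.402, 0.175 and 0.675 CPM with PBS and 1.45, 0.199 and 6.64 CPM with 3'SL (log2 change 2.51 ± 0.69 (SE), edgeR adjusted p = 0.0579). Ikbkg, the regulatory subunit NEMO of the IKK complex, stood at 71.6, 78.9 and 99.2 CPM with PBS and 111, 112 and 330.4 CPM with 3'SL (log2 change 0.97 ± 0.19 (SE), edgeR adjusted p = 0.0181), and lost its call without run 3. It was the 1 call among 18 NF-kB subunits and inhibitors, of which 15 were higher with 3'SL in all 3 runs. Of the 14308 tested genes, 3695 were. The median of that list was 0.35, and 12 had an unadjusted p under 0.05. The interferon response list had 32 of 34 positive changes, but its median was 0.49, -0.14 and 0.48 in the 3 runs, edgeR called 0, DESeq2 with the block 1, and 10 had an unadjusted p under 0.05. Among inflammasome genes, Pycard, the adaptor ASC, fell and stood at 46.2, 41.9 and 46.2 CPM with PBS and 24.5, 31.1 and 17.7 CPM with 3'SL (log2 change -0.87 ± 0.20 (SE), edgeR adjusted p = 0.0294), with 12.8% of its exons under an antisense model, while Mefv, pyrin, rose and stood at 0.287, 0.912 and 1.21 CPM with PBS and 0.967, 1.35 and 5.8 CPM with 3'SL (log2 change 1.64 ± 0.30 (SE), edgeR adjusted p = 0.014), and Casp4, a sensor of cytosolic LPS, changed by 0.65, edgeR adjusted p = 0.0159. The Mefv call was lost without run 3 and the Casp4 call with total counts.

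Early-response regulators were split. Ier3 stood at 7.98, 5.93 and 13.7 CPM with PBS and 22.9, 10.1 and 32.8 CPM with 3'SL (log2 change 1.23 ± 0.20 (SE), edgeR adjusted p = 0.00957), and Dusp1, a phosphatase that ends MAP kinase signalling, at 25, 19.1 and 51.5 CPM with PBS and 30.6, 30.2 and 99.9 CPM with 3'SL (log2 change 0.64 ± 0.11 (SE), edgeR adjusted p = 0.0129). Nr4a2, an orphan nuclear receptor, changed by 0.86, edgeR adjusted p = 0.035. Klf2, which restrains macrophage activation, fell and stood at 5.86, 3.82 and 4.32 CPM with PBS and 1.94, 3.18 and 1.47 CPM with 3'SL (log2 change -1.11 ± 0.25 (SE), edgeR adjusted p = 0.0293). Of 29 such genes 4 were called higher and 1 lower (background 1.98% and 0.86%), and Dusp1, Nr4a2 and Klf2 lost their calls without run 3. Bcl2a1b fell (-0.76, edgeR adjusted p = 0.00223) while Bcl2a1a rose (1.09, edgeR adjusted p = 0.0453), but 79.2% and 69% of their 50-base stretches also occur in other genes of the same family, so their reads may be divided between copies.

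Aox1, aldehyde oxidase, rose and stood at 0.115, 0.105 and 0.371 CPM with PBS and 0.893, 0.995 and 7.47 CPM with 3'SL (log2 change 3.66 ± 0.69 (SE), edgeR adjusted p = 0.0148), and Tnfsf4, the OX40 ligand, stood at 0.201, 0.105 and 0.371 CPM with PBS and 0.781, 0.835 and 9.07 CPM with 3'SL (log2 change 3.66 ± 0.76 (SE), edgeR adjusted p = 0.022). Both were close to the detection limit with PBS. Ednrb, an endothelin receptor, was better expressed at 24.8, 16.5 and 13.7 CPM with PBS and 60.1, 37.9 and 209 CPM with 3'SL (log2 change 2.09 ± 0.40 (SE), edgeR adjusted p = 0.0158). Pde4d, a cAMP phosphodiesterase, changed by 2.13, edgeR adjusted p = 0.022. Cdcp1, Slc6a9 and Rnf183 also ranked among the 15 largest increases, with changes of 3.25, 2.81 and 2.38, none of these 3 was called without run 3, and antisense models cover 30.2% of the Slc6a9 exons. The next genes were named as called members of other lists. Mmp19, a matrix metalloproteinase, stood at 87.2, 79.8 and 81.9 CPM with PBS and 159.8, 134 and 238 CPM with 3'SL (log2 change 1.03 ± 0.17 (SE), edgeR adjusted p = 0.00954), with antisense models over 28.3% of its exons, and Tfec, a macrophage bHLH factor, at 25.2, 27.4 and 27.7 CPM with PBS and 44.2, 46.2 and 86.7 CPM with 3'SL (log2 change 1.06 ± 0.15 (SE), edgeR adjusted p = 0.00498). Mxi1, an antagonist of MYC, changed by 0.78, edgeR adjusted p = 0.0024, and the glucose transporter Slc2a1 by 0.79, edgeR adjusted p = 0.0459.

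Prodh, which degrades proline, fell and stood at 3.39, 4.21 and 4.18 CPM with PBS and 1.19, 2.43 and 0.875 CPM with 3'SL (log2 change -1.46 ± 0.30 (SE), edgeR adjusted p = 0.02). Slc25a13, a mitochondrial aspartate-glutamate carrier, fell and stood at 48.9, 58.9 and 32.5 CPM with PBS and 28.4, 28.4 and 12 CPM with 3'SL (log2 change -1.08 ± 0.12 (SE), edgeR adjusted p = 0.00236). Rasgrp3, an exchange factor for RAS and RAP, fell and stood at 64.7, 85.4 and 33.2 CPM with PBS and 37, 46.3 and 10.4 CPM with 3'SL (log2 change -1.11 ± 0.15 (SE), edgeR adjusted p = 0.00436). Arg1, arginase, varied between runs and stood at 28.4, 9.05 and 48.3 CPM with PBS and 19.8, 4.3 and 15.3 CPM with 3'SL (log2 change -1.03 ± 0.27 (SE), edgeR adjusted p = 0.0466). Tube1, Cdca7l, Tcf19, Chtf18, Ccr1l1 and Fads6 were also among the 15 largest decreases, with changes from -1.41 to -1.05. The complement-related secreted protein gene C1qtnf12 fell by 0.65 on the log2 scale (edgeR adjusted p = 0.0214), while Cd180, a receptor of the TLR family, was at 341, 419.8 and 348 CPM with PBS and 248, 264 and 228 CPM with 3'SL (log2 change -0.58 ± 0.07 (SE), edgeR adjusted p = 0.00299) and just missed the fold limit.

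Several housekeeping groups held no call. Respiratory chain genes encoded in the nucleus (76 tested, median -0.06), lysosomal genes (35, median -0.04) and proteasome genes (31, median 0.08) had 0 calls by edgeR and 0 by DESeq2 with the block, with 2, 8 and 8 at an unadjusted p under 0.05. The 8 tested mitochondrially encoded mRNAs all had positive changes with a median of 0.33 (0.12, 0.08 and 0.66 by run) and 0 calls by either tool, 5 of them at an unadjusted p under 0.05. Mt-Co1 (the mt-Co1 gene of cytochrome oxidase) stood at 4759, 5062 and 3926 CPM with PBS and 5866, 6425 and 6083 CPM with 3'SL (log2 change 0.42 ± 0.09 (SE), edgeR adjusted p = 0.0273), below the fold limit, and 51.1% of its 50-base stretches also occur in another gene model.

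The same called genes were read in the libraries with LPS, which share no library with the comparison above. Of the 283 genes called higher, 175 were also higher with LPS plus 3'SL than with LPS (61.8%, against 48.3% of all tested genes), with a median of 0.11, and 17 were called higher there and 6 lower (207 genes, 1.45%, were called in that comparison). Of the 123 called lower, 72 were lower with LPS too and 51 were higher (41.5%, against 48.3% of all tested genes). Their median was -0.05, and 2 were called lower there and 1 higher. Among all 14308 tested genes, 98 were called higher and 109 lower in that comparison. The effect of 3'SL differed between the 2 settings, by the interaction term of the block fit (edgeR adjusted p under 0.05), for 89 of the 406 genes. Over all 14308 tested genes it did so for 259. The 406 genes were chosen by their change without LPS, which is part of the interaction term. That choice by itself favours such differences among them.

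Selected lists are given next with their values in both settings, and differences between lists were not tested. ER chaperones had 24 of 27 positive changes with LPS as well (median 0.39 with LPS against 0.42 without), and 9 were called higher there, against 98 of all tested genes. Creld2 changed by 0.99 with LPS against 0.86 without, Hspa5 by 0.59 against 0.83, and Slc40a1 by 1.26 against 1.08. The oxidative stress list had a median of 0.10 with LPS, against 1.10 without, and 0 calls by edgeR, and the interaction term passed for 2 of its 15 called genes, Slc7a11 and Gsr. Slc7a11 changed by -0.22 with LPS and Gsr by 0.01. For Gclm (0.70 with LPS) and Hmox1 (0.80) the interaction term did not pass. DNA replication genes had 20 of 33 positive changes with LPS, a median of 0.06 and 0 calls by edgeR, and the interaction term passed for 1 of its 10 called genes. Cholesterol biosynthesis enzymes had 13 of 21 called higher with LPS, against 98 of the 14308 tested genes, and 0 without. The interaction term passed for 1 of the 21. Cytokines and mediators had 1 of 20 positive changes with LPS and a median of -1.03, against 0.54 without. Of these 20, 10 were called lower with LPS, against 109 of the 14308 tested genes. The interaction term passed for 6 of the 20, against 259 of the 14308.

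**Figure D5:**
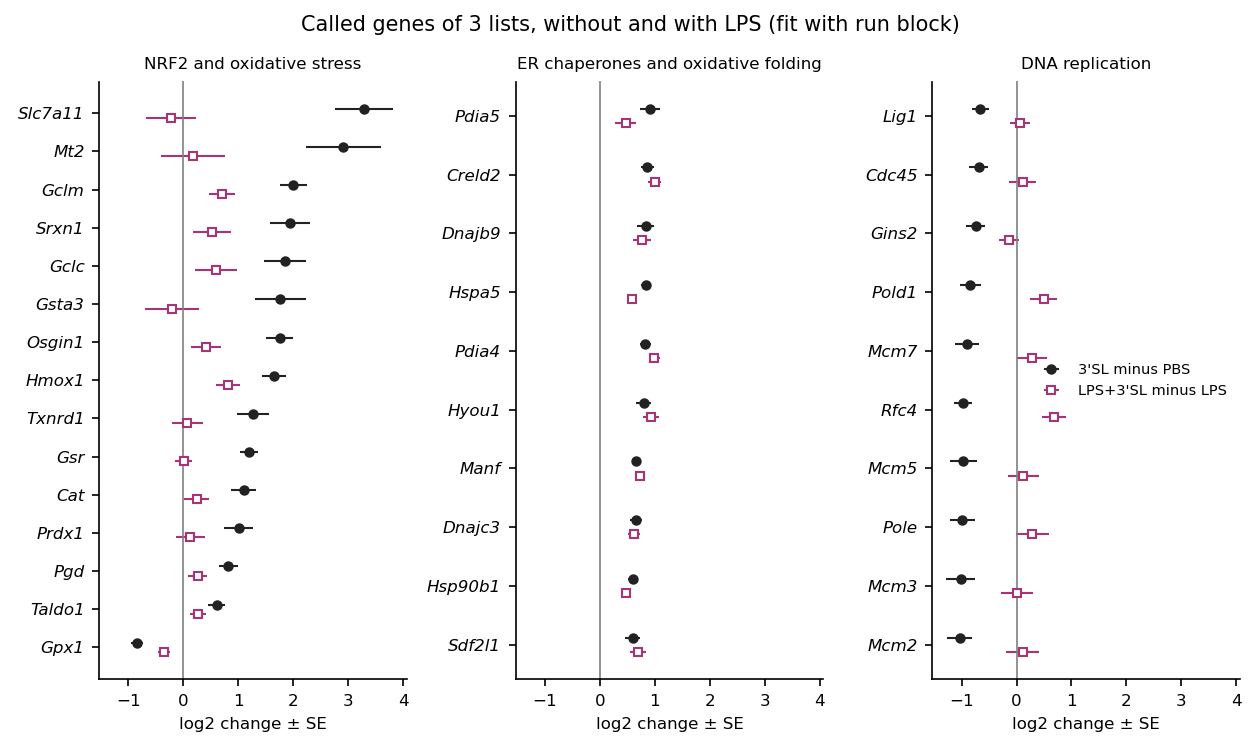
Log2 change with its standard error for the called genes of 3 lists, 3'SL minus PBS (filled circles) and LPS plus 3'SL minus LPS (open squares), both from the fit with the run block. All squares of the ER chaperones lie above 0 (0.83 without and 0.59 with LPS for Hspa5, 0.91 and 0.47 for Pdia5), for oxidative stress genes the squares lie nearer to 0, and for replication genes the squares lie at or above 0 except that of Gins2 (-0.14).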

How the data were processed

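RNA from mouse BMDMs was sequenced as polyA-selected stranded libraries. The deposited files hold, per library, raw counts of reads per gene, which the authors made with FastQC, Trimmomatic, STAR and HTSeq according to the submitters' processing notes. Versions, genome build and strand setting are not given in the sources used here, and the rows that name no gene (33.2% to 36.5% of the entries of the 6 libraries, mostly reads aligned to several places) were left out of totals and tests. Of 43626 genes, 42462 were named from GENCODE M21.

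All 12 libraries were fitted in edgeR 4.0.16 (R 4.3.3) by quasi-likelihood with TMM scaling and filterByExpr (14308 genes kept), without and with the library run as a block. Calls needed a change of 1.5-fold and an adjusted p (Benjamini-Hochberg) below 0.05. The blocked fit rests on the runs of 4 library numbers and the correlations given in the report, since no label pairs the libraries. CPM are TMM-scaled, and changes within a run are log2 ratios of CPM plus 0.5. No pair of libraries in a group agreed within sampling noise (chi-square per gene 17.8 or more). DESeq2 1.42.0 and limma 3.58.1 (voom), other scalings and filters, and leaving out libraries or runs served as alternatives. Scripts were tested on simulated data.

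The comparison and the gene lists were chosen with earlier results of these data known, and the lists were described by counts and medians without a set test. Named genes were the 15 largest changes in each direction with the same sign in all runs and a mean of at least 2 CPM in the higher group (gene models without a name were skipped), up to 3 called members per list and direction or the 2 with the lowest p where none was called, and Fabp4, Pycard, C1qtnf12, Cd180 and Lrp8, while others are marked in the text or stand as bare names. Some genes that meet the rule are not reported here. Doses and time are from the paper's text. Reads of 1 gene and an overlapping antisense gene could not be told apart where the strand setting is unknown.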

Additional observations from a re-analysis of the deposited data

Results flagged for a closer look

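The effect of 3'SL differed between resting and LPS-treated cells for 17 named genes, by the interaction term of the fit with the run block (edgeR, adjusted over all genes). Values are the change with LPS minus the change without LPS, in log2 units. The genes were named largely by their change without LPS, which is part of this term. That choice by itself favours differences opposite in sign to the change without LPS. Among genes called higher without LPS, the widest differences were -3.50 for Slc7a11 (adjusted p = 0.0306), -3.32 for Tarm1 (adjusted p = 0.0353), -2.36 for Mefv (adjusted p = 0.0133), -2.35 for Clec4e (adjusted p = 0.0308), -2.15 for Trem1 (adjusted p = 0.0431), -1.87 for Bcl2a1a (adjusted p = 0.0166), -1.81 for Ahr (adjusted p = 0.0435) and -1.80 for Ptges (adjusted p = 0.00946). Smaller ones were -1.43 for Fas (adjusted p = 0.00886), -1.29 for Ier3 (adjusted p = 0.039), -1.23 for Spic (adjusted p = 0.00711), -1.18 for Gsr (adjusted p = 0.0276), -1.04 for Tfec (adjusted p = 0.0331), -0.88 for Casp4 (adjusted p = 0.03) and -0.78 for Abca1 (adjusted p = 0.011). Rasgrp3, lower without LPS, differed by 1.78 (edgeR adjusted p = 0.0166). Cxcl3, not called without LPS, differed by -5.09 (edgeR adjusted p = 0.0142), with changes of 2.51 without LPS and -2.58 with it. No cause of these differences was tested. Over all called genes, 89 such differences became 44 under scaling by total counts, 1 without run 1 and 0 without run 2.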

How the results depend on the processing

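No gene was called without the run block under either other scaling, either other filter, no fold minimum, only the PBS and 3'SL libraries, or leaving out any single library (0 to 0 calls). DESeq2 called 88, an unadjusted p 620 and the run block 406. With the block, 841 genes were called with no fold minimum, 648 by DESeq2, 724 among all genes with at least 1 count (24679 tested), 2 without run 1 and 3 without run 2, while leaving out single libraries gave 111 (without PBS replicate 3) to 526 (without 3SL replicate 2). That count was 195 without PBS replicate 2, 239 without PBS replicate 1, 146 without 3SL replicate 3 and 314 without 3SL replicate 1. The other block settings gave 323 to 554 calls. The cause of these differences was not tested, and each left-out fit also held fewer libraries.

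The interaction count of 89 became 44 with total counts, 87 with size factors, 1 without run 1, 0 without run 2 and 155 without run 3 (added after seeing the data). Of the 6 lists recomputed, none kept a call without run 1, and only iron handling kept 1 without run 2. Medians moved by more than their spread over runs for ER chaperones within run 3 (0.58), ER-associated degradation within run 3 (0.46) and without run 3 (0.20), ATF4 genes within run 2 (0.29) and without run 2 (0.74), iron handling within run 3 (0.37) and DNA replication within run 3 (-1.29). Total counts shifted the median of all genes by -0.09 and left 10 of 14 oxidative stress calls, 6 of 10 chaperone calls and 14 replication calls. None of the 103 named called genes reversed under any of the 17 settings that gave it a value (the filter of 10 counts in every library gave none for 16 of them), and 29 kept their call whichever of the 6 libraries was left out.

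No paired analysis from replicate labels was possible because the labels give no replicate numbers; runs of library numbers took that place. With 3 libraries per group and a response that varies between runs, changes under 1.5-fold and genes at a few CPM are poorly resolved.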

Other observations

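Beyond the lists, further genes with related roles were called, all chosen after their values were seen (edgeR with the run block, log2 changes). Bach1, a repressor of NRF2 targets, changed by 0.69 and Mafg, a small MAF partner, by 0.73. The peroxiredoxin Prdx6 changed by 1.42, pirin (Pir) by 1.16, the carbonyl reductase Cbr3 by 1.39 and the exporter Abcc1 by 1.04. Ahr, the aryl hydrocarbon receptor, changed by 1.42 and its repressor Ahrr by 1.46. Among single genes called lower, the changes were -0.77 for Rad54l, -0.65 for Blm, -1.05 for Chaf1a and -0.99 for Wdr76. Bach1, Mafg, Pir, Rad54l, Blm and Chaf1a lost their calls without run 3.

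B cell markers summed to 18.5 to 24.9 CPM with PBS and 28.2 to 77.3 CPM with 3'SL, most of it from Ighm (19.8, 17.9 and 15.5 CPM with PBS and 22.9, 26.5 and 76.1 CPM with 3'SL, log2 change 1.02 ± 0.31 (SE), edgeR adjusted p = 0.0747), while 2 of the 8 markers had no reads in these 6 libraries. T and NK cell markers (12 genes) summed to 15.7 to 18.4 CPM with PBS and 16.9 to 17.7 CPM with 3'SL.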
